A study of Mus musculus with 5 samples.

Results

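The genes described here encode proteins that cut peptide hormone precursors to their mature form and that build the dense-core granule in which islet cells store them. They are the convertase gene Pcsk1, the carboxypeptidase gene Cpe, Pcsk1n and Scg5, whose products bind the convertases, the granin genes Chga, Chgb and Scg2, the granule membrane phosphatase-like genes Ptprn and Ptprn2, and the zinc transporter gene Slc30a8. The 10 genes were listed by name. Each was read from a probe set annotated to that gene alone, the brightest where a gene had several. All 10 were found among the 19938 genes of the table, each with 1 probe set.

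RNA came from islet cells of untreated C57BL/6 mice, 8 to 12 weeks of age and heterozygous for Flattop (FVR/+), a genotype that every pool carried. Flow cytometry gave a Flattop-positive fraction, measured on 3 arrays, and a Flattop-negative fraction, measured on 2 arrays, with 1 pool of 4 to 6 mice on each array. The sex of the mice was not determined. The series is titled for proliferative and mature β-cells, and the question here is how these genes differ between the fractions.

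The values are log2 signals, on which 1 unit is a 2-fold difference. Array medians over the 19938 genes lay between 5.04 and 5.23. The SD over genes was 1.93, 1.83 and 1.86 on the positive arrays but 1.65 and 1.63 on the negative arrays. The scales of the fractions thus differed in width, and the part of this in the differences below was not tested. Across genes the Flattop-negative pair had the lowest correlation of any pair of arrays (r = 0.846, against 0.896 to 0.984 for the others). Cfap126, the gene of Flattop, read 6.07, 6.07 and 6.24 on the positive arrays against 5.52 and 5.44 on the negative arrays, without overlap and with a difference of 0.64 ± 0.18 (SE; limma adjusted p = 0.274). Nothing in the labels says which pools shared mice, so the p-values measure only the spread between these arrays. In pools of sorted cells, fewer cells of a type and less RNA per cell cannot be told apart.

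Peptide hormones are made as longer precursors that enter the secretory pathway and are packed into granules at the trans-Golgi network. Prohormone convertase 1/3, the product of Pcsk1, cuts the precursor after pairs of basic residues, and carboxypeptidase E then trims the basic residues left at the cut end. Granins such as chromogranin A aggregate in the acidic, calcium-rich lumen and help granules to form, and ZnT8, the product of Slc30a8, brings in the zinc with which insulin crystallises. All of these proteins are found in β-cells, and many also in the α-, δ- and PP-cells of the islet.

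The promoters of several of these genes carry the cyclic AMP response element, the site at which CREB family factors bind. Promoters were available for 8 of the 10 genes from RefSeq (GRCm38.p6), Cpe and Slc30a8 not being among them. The 250 bases before the start site were searched on both strands for the full element TGACGTCA, a palindrome, and for its shorter form TGACGT, which also lies inside the full one. The full element was found in 3 of the 8 genes, Scg2, Chgb and Pcsk1, in 1.55% of the 32851 promoters in the table, and in 2.34% of the 15563 tested genes that have a promoter there. The shorter form was found in 5 of the 8, which adds Chga and Scg5, in 6.47% of all promoters and in 8.96% of those genes. The windows are shown because the array values divide these 5 genes in 3 ways, as given below for each. Capitals mark the match, each sequence runs 5′ to 3′ on the strand of the gene, and the match lies 68 to 61 bases before the start in Scg2, 72 to 65 in Chgb, 78 to 71 in Pcsk1, 44 to 39 in Chga and 175 to 170 in Scg5. Outside the full element, Pcsk1 has a further TGACGT 50 to 45 bases before the start, not in capitals and cut off by the end of its window.
Scg2, chr1:79440063-79440118, minus strand: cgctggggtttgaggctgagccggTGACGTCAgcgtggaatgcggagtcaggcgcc
Chgb, chr2:132781546-132781601, plus strand: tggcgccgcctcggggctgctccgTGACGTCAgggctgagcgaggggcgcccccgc
Pcsk1, chr13:75089755-75089810, plus strand: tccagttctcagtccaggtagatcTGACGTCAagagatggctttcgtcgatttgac
Chga, chr12:102554873-102554926, plus strand: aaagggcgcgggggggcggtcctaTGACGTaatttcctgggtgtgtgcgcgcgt
Scg5, chr2:113829237-113829290, minus strand: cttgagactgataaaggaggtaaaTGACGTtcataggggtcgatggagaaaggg

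All 10 genes were well above the floor of the arrays in both fractions. Their signals ran from 7.24 to 13.02, and 0 of the 50 values lay below 4.51, the 95th percentile of the mean signals of olfactory receptor genes, which is taken here as that floor. The 10 fitted differences lay above 0, that is on the side of the Flattop-positive fraction, from 0.11 for Cpe to 1.37 for Pcsk1, with a median of 0.70, while 8 of the 10 did so on repeated quantile normalisation or after cyclic loess. The median over all genes was -0.10, but over the 605 genes with a mean signal of at least 9, as these genes have, it was 0.55. For those 605 genes it was 0.06 after cyclic loess. None of the 10 passed limma's test at an adjusted p of 0.05 over all genes, where 0 genes passed (0% of those tested). Of the 10, 1 had an unadjusted p under 0.05 with the higher level in the positive fraction, against 8.48% of all genes and 27.9% of genes with a mean signal of at least 9. The lower direction held 0 of the 10, against 5.37% of all genes and 0.165% of genes with a mean signal of at least 9, so a count of 0 is what such bright genes mostly give.

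**Figure D1:**
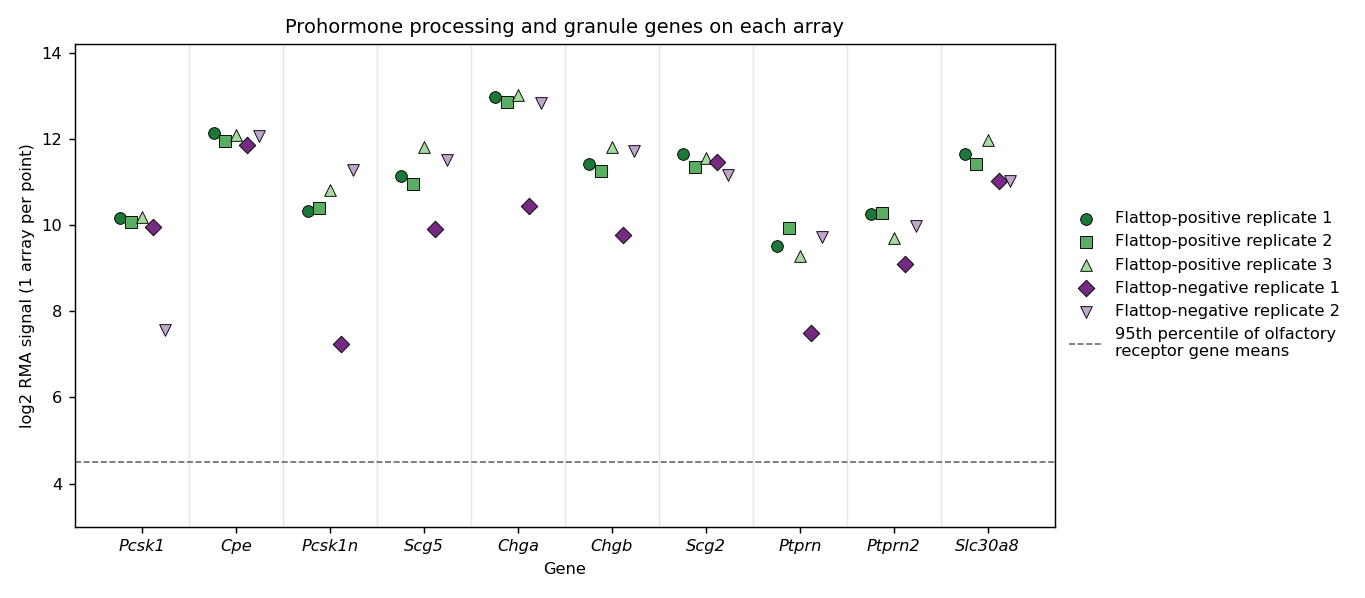
Log2 RMA signal of the 10 genes on each of the 5 arrays (1 point per array, vertical axis in log2 units, genes along the horizontal axis), with a dashed line at 4.51, the 95th percentile of the mean signals of olfactory receptor genes. Flattop-negative replicate 1 is the lowest point for Pcsk1n, Scg5, Chga, Chgb, Ptprn and Ptprn2 and, by small margins, for Cpe and Slc30a8. Flattop-negative replicate 2 is the lowest for Pcsk1 and, by a small margin, for Scg2. The points of Cpe and of Scg2 stay close together on all arrays.

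Pcsk1, the convertase that opens proinsulin cleavage, read 10.15, 10.07 and 10.18 on the positive arrays against 9.97 and 7.56 on the negative arrays. Flattop-negative replicate 1 thus lay just under the positive arrays, by 0.10 from the lowest of them, and replicate 2 far below. The means were 10.13 ± 0.06 (SD, n = 3) and 8.76 ± 1.70 (SD, n = 2), a difference of 1.37 ± 0.68 (SE) that did not pass limma's test (adjusted p = 0.426). It was 2.58 without Flattop-negative replicate 1 (adjusted p = 0.0958) and 0.17 without replicate 2 (adjusted p = 0.573), so 1 array made nearly all of it. On replicate 2, the gap of Pcsk1 to the positive mean, -2.58, was the lowest of the 605 genes with a mean signal of at least 9.

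The 2 genes whose products bind the convertases showed the other array low. Pcsk1n encodes proSAAS, a granin-like inhibitor of convertase 1/3, and read 10.33, 10.40 and 10.81 on the positive arrays against 7.24 and 11.27 on the negative arrays. Flattop-negative replicate 1 was thus the lowest of the 5 arrays, 9.64-fold below the positive mean, and replicate 2 the highest. The difference of 1.26 ± 1.13 (SE; limma adjusted p = 0.612) turned to -0.75 without replicate 1 (adjusted p = 0.175). Without replicate 2 it was 3.27 and passed (adjusted p = 0.0412), with the lone negative array assumed to vary like the positive group.

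Scg5 encodes 7B2, the chaperone and inhibitor of convertase 2, and read 11.15, 10.96 and 11.81 on the positive arrays against 9.90 and 11.51 on the negative arrays. Replicate 2 of the negative fraction lay inside the positive range and replicate 1 below it. The difference was 0.60 ± 0.53 (SE; limma adjusted p = 0.611), and it turned to -0.21 without Flattop-negative replicate 1 and was 1.40 without replicate 2. The gene of convertase 2 itself, Pcsk2, was not analysed here.

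Cpe showed almost no gap. It read 12.15, 11.96 and 12.09 on the positive arrays against 11.85 and 12.06 on the negative arrays, which overlap. Its difference was 0.11 ± 0.19 (SE; limma adjusted p = 0.797), and its sign turned on repeated quantile normalisation (-0.04) and after cyclic loess (-0.33). The 5 arrays spanned 0.30 log2 units for this gene, the smallest span among the 10.

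The granins differed in their pattern over the arrays. Chga, which encodes chromogranin A, read 12.97, 12.85 and 13.02 on the positive arrays against 10.44 and 12.84 on the negative arrays. The groups did not overlap, but by 0.01 only, since Flattop-negative replicate 2 reached the positive arrays and replicate 1 lay 5.68-fold below their mean. The means were 12.95 ± 0.09 (SD, n = 3) and 11.64 ± 1.70 (SD, n = 2), a difference of 1.31 ± 0.68 (SE; limma adjusted p = 0.441). It was 0.11 without Flattop-negative replicate 1 (adjusted p = 0.731), and without replicate 2 it was 2.51 and passed (adjusted p = 0.0412). On 3 arrays Chga stood within 1 log2 unit of 13.85, the highest value in the table, which limits the differences that can be seen among the bright arrays.

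Chgb, which encodes chromogranin B (secretogranin I), read 11.42, 11.26 and 11.81 on the positive arrays against 9.78 and 11.72 on the negative arrays. Here too Flattop-negative replicate 1 alone was low, 3.29-fold below the positive mean, while replicate 2 lay inside the positive range. The difference was 0.75 ± 0.58 (SE; limma adjusted p = 0.564), -0.22 without replicate 1 and 1.72 without replicate 2 (adjusted p = 0.0632).

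Scg2, which encodes secretogranin II, stayed level. It read 11.64, 11.35 and 11.55 on the positive arrays against 11.47 and 11.16 on the negative arrays, which overlap, with a span of 0.48 over all 5. Its difference was 0.20 ± 0.21 (SE; limma adjusted p = 0.665), and its sign turned on repeated quantile normalisation (-0.04) and after cyclic loess (-0.26). Scg2, Chgb and Pcsk1 share the full cyclic AMP response element in the windows printed above. In that order they were level, low on Flattop-negative replicate 1 and low on Flattop-negative replicate 2. Chga and Scg5, with the shorter form, were both low on replicate 1, as were Pcsk1n and Ptprn, in whose windows neither form was found. The low values rest on 1 array each, and a link between the element and the array values was not tested.

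The 2 membrane proteins of the phosphatase family, IA-2 (Ptprn) and IA-2β or phogrin (Ptprn2), are catalytically inactive relatives of receptor tyrosine phosphatases that span the granule membrane and are autoantigens in type 1 diabetes. Ptprn read 9.52, 9.93 and 9.27 on the positive arrays against 7.51 and 9.73 on the negative arrays. Flattop-negative replicate 1 lay 4.19-fold below the positive mean, and replicate 2 inside the positive range. The difference was 0.96 ± 0.66 (SE; limma adjusted p = 0.528), -0.16 without replicate 1 and 2.07 without replicate 2 (adjusted p = 0.0586).

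Ptprn2 read 10.26, 10.28 and 9.71 on the positive arrays against 9.09 and 9.98 on the negative arrays. Replicate 1 was again the lowest array, 1.98-fold below the positive mean, so the gap was smaller than that of Ptprn on the same array. The difference was 0.54 ± 0.35 (SE; limma adjusted p = 0.503), 0.10 without replicate 1 and 0.99 without replicate 2. After cyclic loess it was 0.06.

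Slc30a8 was the only gene of the 10 for which both negative arrays gave the same reading. It read 11.65, 11.41 and 11.97 on the positive arrays against 11.02 and 11.03 on the negative arrays, so that the groups were apart by 0.38. The means were 11.68 ± 0.29 (SD, n = 3) and 11.03 ± 0.001 (SD, n = 2), a difference of 0.65 ± 0.23 (SE) or 1.57-fold. This was the gene with an unadjusted p under 0.05 in limma's fit, and it did not pass the adjusted test (adjusted p = 0.326). The difference was 0.65 without either negative array and between 0.50 and 0.79 without each positive array. It was 0.43 on repeated quantile normalisation and 0.20 after cyclic loess. No gene of the 10 had an unadjusted p under 0.05 in limma after either normalisation, with dim genes left out or with array weights. The same held without Flattop-positive replicate 1 and without Flattop-positive replicate 3. Over the 5 arrays, and among 11607 genes above the floor, the genes whose mean-centred values lay closest to those of Slc30a8 were Steap2, Terf2 and Rpl14, with mean absolute differences of 0.029, 0.038 and 0.045 log2 units.

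**Figure D2:**
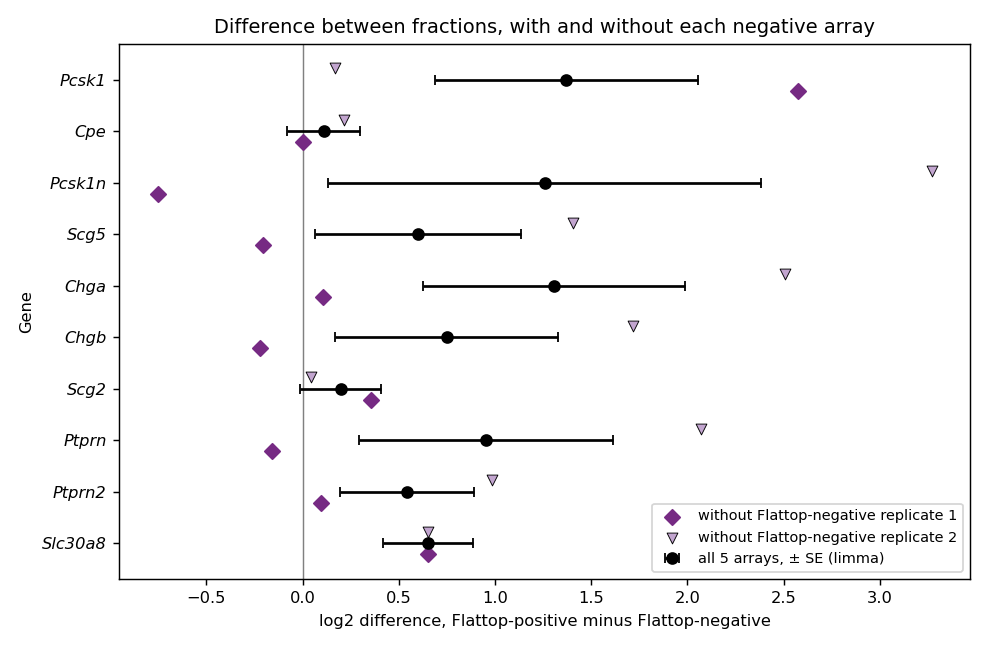
Log2 difference between fractions (horizontal axis, Flattop-positive minus Flattop-negative) for each of the 10 genes, from all 5 arrays with the standard error of limma as bars, and again without each negative array. For Slc30a8 the 3 values coincide near 0.65, for Pcsk1 they run from 0.17 to 2.58 and for Pcsk1n from -0.75 to 3.27.

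Counted over the 10 genes, 3 did not overlap between the fractions and were higher in the positive arrays, namely Pcsk1, Chga and Slc30a8. That share is to be read against 13.7% of all genes and 39.7% of genes with a mean signal of at least 9. None of the 10 lay lower without overlap, against 21.0% of all genes and 1.49% of these brighter genes.

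The pattern the genes had most often was a low value on 1 array. Flattop-negative replicate 1 lay at least 2-fold below each of the other 4 arrays for 5 of the 10 genes, Pcsk1n, Chga, Ptprn, Chgb and Scg5. That was so for 3.62% of all genes and for 23.8% of genes with a mean signal of at least 9. By their gap to the positive mean on that array, these genes ranked 26, 54, 93, 125 and 174 from the lowest, in that order. The ranks are among the 605 genes with a mean signal of at least 9. Flattop-negative replicate 2 lay at least 2-fold below each of the other arrays for 1 of the 10, Pcsk1, against 2.45% and 6.61%. This way of counting was chosen after the values had been seen, and no test was made of it.

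The median over the 10 genes was 11.28, 11.11 and 11.68 on the positive arrays against 9.93 and 11.21 on the negative arrays. Flattop-negative replicate 2 thus lay inside the positive range and replicate 1 below it. Without Flattop-negative replicate 1, 6 of the 10 differences lay above 0 and their median was 0.05. At an unadjusted p under 0.05, Pcsk1 was then higher (13.0% of all genes and 36.0% of genes with a mean signal of at least 9) and Pcsk1n lower (13.7% and 2.81%). Without replicate 2 the median was 1.20 and 6 genes were higher at that threshold, against 13.4% of all genes and 46.6% of the brighter ones. Of these, Chga and Pcsk1n also passed the adjusted threshold in limma, as did 2.18% of all genes and 14.9% of the brighter ones. After cyclic loess the median was 0.24, 8 lay above 0, and 0 were higher at an unadjusted p under 0.05, against 4.40% and 8.26%.

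**Figure D3:**
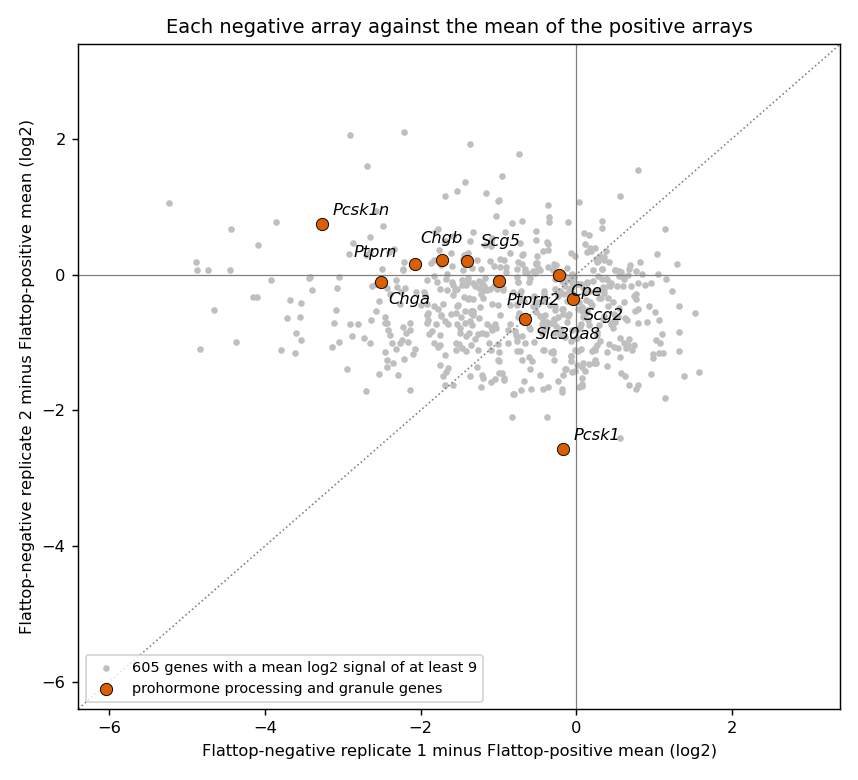
Each negative array minus the mean of the 3 positive arrays, in log2 units, with replicate 1 on the horizontal and replicate 2 on the vertical axis, for the 10 genes (orange) and the 605 genes with a mean signal of at least 9 (grey), and a dotted line of equality. Pcsk1n, Chga, Ptprn, Chgb and Scg5 lie to the left at a height near or above 0, Pcsk1 lies at the bottom, and Slc30a8 lies on the line.

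The remaining genes of the pathway were taken from 7 further lists with 131 genes, of which 126 were tested. None passed the adjusted test. The median difference of the 126 was 0.31, beside 0.55 for genes with a mean signal of at least 9, a level that most of the 126 did not reach. At an unadjusted p under 0.05, 28 were higher and 1 was lower in the positive fraction (8.48% and 5.37% of all genes, 27.9% and 0.165% of the brighter ones). These counts were 32 and 13 when Flattop-negative replicate 1 was left out (13.0% and 13.7% of all genes) and 39 and 7 when replicate 2 was (13.4% and 13.6%). After cyclic loess they were 10 and 4 (4.40% and 3.77%). All adjusted p-values given for these genes are from the same limma fit.

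Of the other enzymes that cut or modify prohormones, 2 of 14 were higher at an unadjusted p under 0.05 and 0 lower, with a median of 0.26. The counts were 1 and 2 with Flattop-negative replicate 1 left out, 5 and 0 with replicate 2 left out, and 1 and 0 after cyclic loess. Mbtps1, the site-1 protease of the Golgi, read 6.97, 7.44 and 6.86 on the positive arrays against 6.19 and 6.10 on the negative arrays, without overlap (0.95 ± 0.24, SE; adjusted p = 0.253). Qsox1, a sulfhydryl oxidase that forms disulfide bonds in secreted proteins, had 0.88 ± 0.33 (SE; adjusted p = 0.338). Of the 5 other granin and granule matrix genes 0 had an unadjusted p under 0.05 in either direction, and their median was -0.04. Leaving out the same arrays gave 1 higher and 1 lower, and 2 and 1, and cyclic loess gave 0 and 0. The smallest p among them was that of Nucb1, a calcium-binding protein of the Golgi, which lay at 7.91, 7.72 and 7.98 against 6.45 and 8.13 and was thus low on Flattop-negative replicate 1 alone.

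Genes of the vacuolar proton pump and of granule ion transport had a median of 0.58, with 8 of 23 higher at an unadjusted p under 0.05 and 0 lower. Genes with a mean signal of at least 9 had a median of 0.55, with 27.9% higher, against 8.48% of all genes. Most of the 23 genes were dimmer than 9, so neither share is for genes of like brightness. The pump acidifies the granule, a condition for the convertases to work. Its subunit genes Atp6v1e1 and Atp6v0d1 had differences of 1.55 ± 0.22 (SE; adjusted p = 0.198) and 1.04 ± 0.25 (SE; adjusted p = 0.239), and the accessory protein gene Atp6ap1 had 1.32 ± 0.32 (SE; adjusted p = 0.241). Atp6v1e1 read 9.77, 9.42 and 9.79 on the positive arrays against 7.99 and 8.23 on the negative arrays, both low. Atp6v0e2, a further subunit gene, had 1.31 ± 0.33 (SE; adjusted p = 0.249). The count of 8 was 9 without either negative array, with 1 lower when replicate 2 was left out, and 1 after cyclic loess.

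Genes of granule budding, sorting and the granule membrane had a median of 0.54, with 12 of 28 higher at an unadjusted p under 0.05 and 0 lower. Beside this stand the same 0.55 and 27.9% for genes with a mean signal of at least 9, and 8.48% of all genes. Most of the 28 genes were dimmer than 9, so neither share is for genes of like brightness. Bace2, an aspartic protease of β-cells, read 10.20, 9.96 and 10.09 on the positive arrays against 8.50 and 8.45 on the negative arrays, a difference of 1.61 ± 0.19 (SE; adjusted p = 0.198). Rab3d, a GTPase of secretory granules, read 8.45, 8.26 and 7.84 against 6.41 and 6.42 (1.77 ± 0.24, SE; adjusted p = 0.198). In both genes the 2 negative arrays agreed and lay over 1 log2 unit below every positive array. Arfip2, a membrane-curving protein of the trans-Golgi, and Arf1, the GTPase that recruits coats there, had 1.70 ± 0.26 and 1.20 ± 0.25 (SE; adjusted p = 0.198 and 0.218). The count was also 12 without either negative array, with 2 lower when replicate 2 was left out, and 6 after cyclic loess.

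Among the other zinc transporters and metallothioneins, 4 of 23 were higher at an unadjusted p under 0.05 and 0 lower, with a median of 0.20. The importers Slc39a7 (1.73 ± 0.56, SE), Slc39a9 (1.17 ± 0.39), Slc39a1 (0.96 ± 0.26) and Slc39a13 (0.65 ± 0.21) were the 4, with adjusted p from 0.257 to 0.307. Leaving out Flattop-negative replicate 1 gave 6 higher and 5 lower, leaving out replicate 2 gave 4 and 0, and cyclic loess gave 0 and 0. Of 12 regulators of granule genes 1 was higher at that threshold, Pdx1, a β-cell homeodomain factor, at 8.69, 9.03 and 8.86 against 7.67 and 7.36 (1.35 ± 0.21, SE; adjusted p = 0.198). With Flattop-negative replicate 1 left out 2 regulators were higher and 0 lower, with replicate 2 left out 3 and 2, and after cyclic loess 2 and 1. Rest, the repressor that keeps granin genes silent outside neural and endocrine cells, read 3.95 to 4.44 over the 5 arrays, below the floor on each; it was named after its values were seen.

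**Figure D4:**
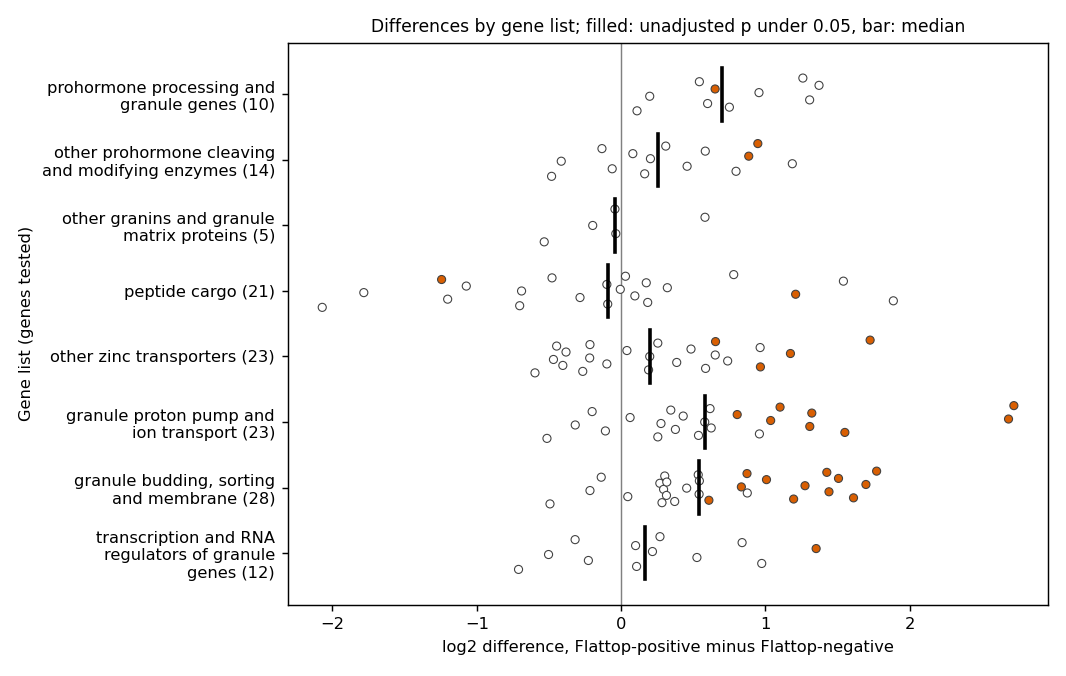
Log2 difference between fractions (horizontal axis, Flattop-positive minus Flattop-negative) for each gene of the 8 lists, 1 point per gene, filled where the unadjusted p of limma was under 0.05, with a bar at the median of the list. The medians run from -0.09 for peptide cargo to 0.70 for the 10 prohormone processing and granule genes, and the filled points of the proton pump and budding lists all lie above 0.

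The peptides that these proteins process and store had differences in both directions. Of 21 cargo genes 1 was higher and 1 lower in the positive fraction at an unadjusted p under 0.05, and their median was -0.09. There were 1 higher and 5 lower when Flattop-negative replicate 1 was left out, 4 and 1 when replicate 2 was, and 0 and 3 after cyclic loess, where the median was -0.32. In the fit of all arrays the higher one was Ucn3, a peptide of mature β-cells, at 11.14, 10.84 and 11.01 against 10.28 and 9.29 (1.21 ± 0.33, SE; adjusted p = 0.265). The other was Nppa, which encodes a natriuretic peptide, at 4.33, 4.30 and 4.66 against 5.11 and 6.24, with 2 positive arrays below the floor, so the size of its difference is uncertain.

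Insulin and islet amyloid polypeptide, the main β-cell cargo, were near the top of the scale on all arrays. Ins2 read 12.95, 12.64 and 13.08 against 12.37 and 13.04, and Iapp 12.92, 12.65 and 12.82 against 12.68 and 12.72. In contrast Sst, the δ-cell hormone, read 12.32, 12.33 and 12.93 on the positive arrays against 8.08 and 13.19 on the negative arrays, and Ppy, of PP-cells, read 12.44, 12.76 and 13.34 against 8.98 and 13.63. The array on which Sst and Ppy were low, Flattop-negative replicate 1, is the one on which Pcsk1n, Chga, Chgb, Scg5 and Ptprn were low. Glucagon (Gcg) was not low there, at 12.85, 12.81 and 13.17 against 13.06 and 13.39. On 3 arrays it stood within 1 log2 unit of the highest value, which limits the differences that can be seen. Another α-cell marker, Ttr, was low there, at 12.27, 12.34 and 12.41 against 9.69 and 12.67. The α-cell markers Irx1, Irx2, Slc38a5 and Gria3 were not 2-fold below each other array there. The hormone genes other than Ucn3 and Nppa, and Ttr, were named after their values were seen.

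**Figure D5:**
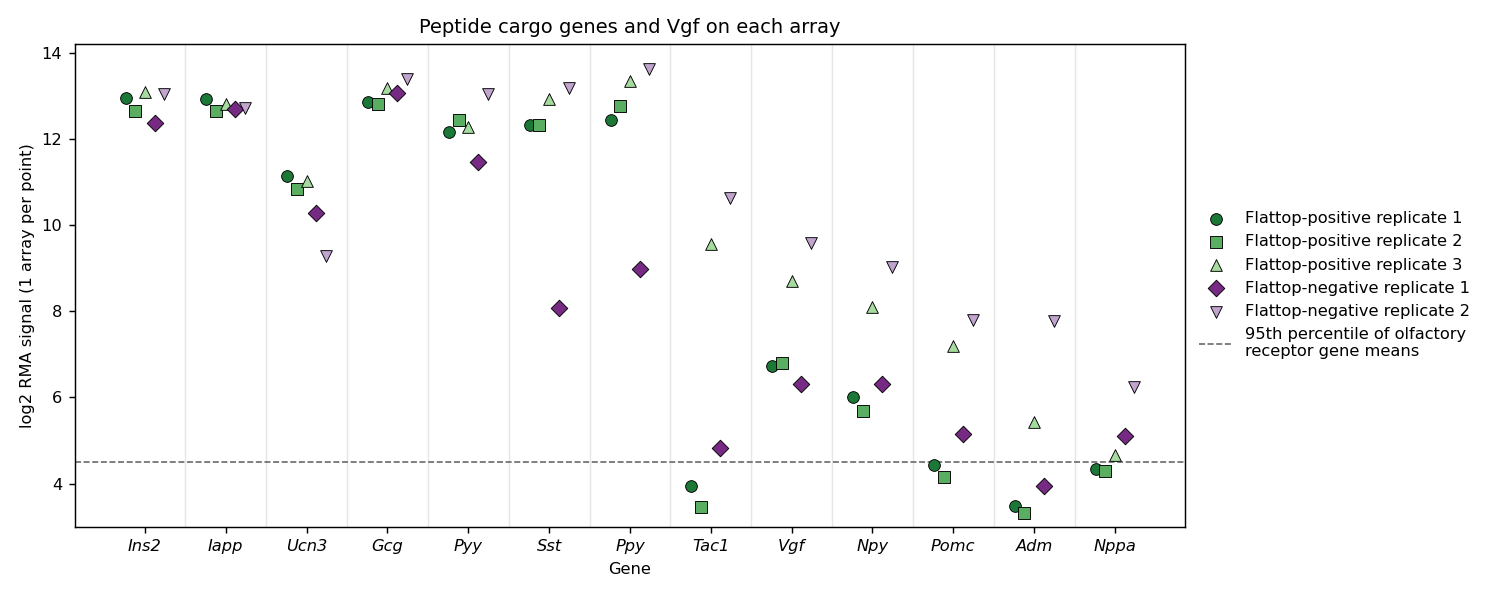
Log2 RMA signal of 12 peptide cargo genes and Vgf on each of the 5 arrays, drawn as for the 10 genes, with the same dashed floor at 4.51. Ins2, Iapp and Gcg stay above 12 on all arrays, Sst and Ppy drop on Flattop-negative replicate 1, and Tac1, Vgf, Npy, Pomc and Adm are highest on Flattop-negative replicate 2 and next highest on Flattop-positive replicate 3.

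The marker genes of the cell types in the sort varied between arrays as well. The summed signal of the 8 β-cell markers was 14.28 to 14.51 (log2) on the positive arrays against 13.96 and 14.09 on the negative arrays. Of the 8, 5 had an unadjusted p under 0.05 in limma's fit, all higher in the positive fraction. That direction held 8.48% of all genes and 27.9% of genes with a mean signal of at least 9. For the 4 δ-cell markers the sum was 12.43 to 13.07 against 9.33 and 13.47, with Hhex, a defining factor of δ-cells, below the floor on 4 of 5 arrays. Such sums mostly follow the brightest genes, and the low sum here was that of Sst. On Flattop-negative replicate 1 Rbp4 read 8.36 against 8.53 to 9.51 on the positive arrays, and Ghsr 4.93 against 5.23 to 5.66. For 6 α-cell markers it was 13.60 to 13.85 against 13.22 and 14.10. Macrophage markers (9 genes) summed to 8.00 to 8.54 against 7.87 and 10.02. Of the 9, 1 was higher and 1 lower in the positive fraction at an unadjusted p under 0.05, against 8.48% and 5.37% of all genes. They were C1qa, at 7.15, 6.98 and 6.02 against 4.95 and 5.84, and C1qc, at 4.37, 4.34 and 4.20 against 4.93 and 5.49. Lyz2 stood at 9.41 on Flattop-negative replicate 2 and at 4.58 or less elsewhere, Csf1r and Cd68 were above the floor on all 5 arrays, and Adgre1 and Ptprc were below it on all 5. Acinar markers (7 genes) summed to 7.09 to 7.34 against 7.66 and 8.56, stellate markers (6) to 7.21 to 7.55 against 7.44 and 9.19, and duct markers (4) to 9.30 to 10.02 against 7.48 and 9.02. The stellate sum of 9.19 followed Vim, at 8.59 on Flattop-negative replicate 2 and 5.64 or less elsewhere. The duct sums followed Krt7, at 9.29, 9.88 and 9.05 against 6.76 and 8.37, while Sox9, Krt19 and Cftr overlapped between the fractions. Of 5 endothelial markers 0 had a mean above the floor. The part of cell make-up in the differences of the 10 genes was not tested.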

How the data were processed

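The authors deposited log2 signals per probe set on 5 arrays, for which the submitters' processing notes name RMA and the Affymetrix Expression Console (version 1.3.0.187). Background correction, normalisation between arrays and summary of probes are steps of RMA, and array signals saturate near the top of the scale. The build behind the array annotation was not given in the sources used here. Of 35556 probe sets, 21789 had 1 gene symbol, 1621 several and 12146 none listed. The brightest was kept for each of 19938 genes.

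The fractions were compared in limma 3.58.1 (R 4.3.3) with group as the only term, moderated variances, two-sided tests and Benjamini-Hochberg adjustment over all genes, after a check on simulated data. Tables used pandas 2.3.3 and plots matplotlib 3.10.9. The comparison had 3 arrays against 2, which limits precision. The genes and lists were chosen with earlier results of these data known. Genes named from the other lists are those with an unadjusted p under 0.05 and a fold of 1.5 or more, up to 4 a list by smallest p, or the gene of smallest p where none met this. For each of the 10 genes with an unadjusted p under 0.05, the 3 closest genes by mean absolute difference were named. The set of genes with a mean signal of at least 9, and counts of arrays lying 2-fold below all others, were added after the values had been seen. Some genes of the lists and some of the markers were not analysed here. Alternatives covered normalisation, the filter on dim genes, the choice of probe set, the variance model, array weights, a replicate block, each array left out and the threshold.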

Additional observations from a re-analysis of the deposited data

How the results depend on the processing

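Of 140 recomputed differences (10 genes, 14 alternatives each), 130 kept their direction and their side of the adjusted threshold. The sign turned for Cpe and Scg2 on repeated quantile normalisation (-0.04 and -0.04) and after cyclic loess (-0.33 and -0.26). It also turned without Flattop-negative replicate 1 for Pcsk1n (-0.75), Scg5 (-0.21), Chgb (-0.22) and Ptprn (-0.16), whose highest values with an array left out were 3.27, 1.40, 1.72 and 2.07. Without Flattop-negative replicate 2, Pcsk1n (3.27) and Chga (2.51) passed. With each array left out in turn, the count of genes past the adjusted threshold ran from 0 to 434, that of the 10 genes from 0 to 2, and their median difference from 0.05 to 1.20. With the threshold set to an unadjusted p under 0.05 plus a fold of 1.5 or more, 2356 genes and 1 of the 10, Slc30a8, were past the threshold. The cause of these changes was not tested. Deviations from the group means correlated at 0.182 for the arrays numbered 1 and at -0.137 for those numbered 2. The highest value was 0.225, for Flattop-positive replicate 3 with Flattop-negative replicate 2. With 2 negative arrays their deviations are mirror images, so these values cannot decide whether arrays were paired. The numbers were not taken to pair the arrays. With the replicate number as a block the median over the 10 genes was 0.66, 0 genes passed the adjusted threshold in limma, and 1775 genes had an unadjusted p under 0.05 against 2760 without it. That fit takes its difference from the arrays numbered 1 and 2, so its log2 differences for the 10 genes equal those without Flattop-positive replicate 3. The standard errors and adjusted p-values of these 2 fits were not the same.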

Other observations

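The cargo genes Tac1, Npy, Pomc and Adm and the granin-like gene Vgf were high on 1 array of each fraction, and they were picked after their values had been seen. Tac1, which encodes substance P, read 3.95, 3.46 and 9.55 on the positive arrays against 4.83 and 10.62 on the negative arrays. Vgf read 6.73, 6.79 and 8.70 against 6.31 and 9.57. Neuropeptide Y (Npy) read 6.00, 5.70 and 8.10 against 6.31 and 9.03, pro-opiomelanocortin (Pomc) 4.43, 4.16 and 7.20 against 5.14 and 7.79, and adrenomedullin (Adm) 3.48, 3.31 and 5.43 against 3.94 and 7.77. In each of the 5 genes Flattop-positive replicate 3 and Flattop-negative replicate 2 were the highest arrays, and the fractions overlapped. On the same pair of arrays Pcsk1n, Scg5 and Chgb had their highest values, at 10.81 and 11.27, 11.81 and 11.51, and 11.81 and 11.72, which was not so for the other 7 of the 10 genes.

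The proton pump genes Atp6v1f and Atp6v0b, also named after their values were seen, read 5.81 and 5.50 on Flattop-negative replicate 1. Their gaps to the positive mean there, -4.37 and -4.52, were the widest among the proton pump and ion transport genes. Both genes were brighter elsewhere, at 10.05, 9.92 and 10.58, and 10.16, 9.75 and 10.16, on the positive arrays. On Flattop-negative replicate 2 they read 9.19 and 9.11. Both negative arrays thus lay below the positive arrays in each gene, to very different depths.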
